A study of Homo sapiens with 9 samples.

Results

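Capture Hi-C (cHi-C) of growing and RAS-induced senescent (RIS) fibroblasts was searched for focal contact peaks, pairs of 10 kb bins that met each other more often than the bins around them. A peak had to lie 40 to 800 kb apart inside a stretch of adjacent captured bins, be the highest value of its 5 by 5 neighbourhood and reach 1.5 times the mean of its ring. The ring was the 9 by 9 square around the pair without its inner 5 by 5 bins, and the value, on which the peaks were selected, was the mean of the growing and RIS means after the 4 cHi-C libraries had been scaled to the same total. The rule found 377 peaks among 54612 pairs that it could choose from. Because the peaks were chosen by the value and the ratio to the ring over both states together, their height over the ring is a description, whereas the Hi-C values and the bases of the anchors took no part in the choice. The difference between RIS and growing was not used as such, but a peak that passed the ratio through one state alone had to be higher there.

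All cells were IMR90, a human fetal lung fibroblast line, stably infected with ER:HRAS(G12V), an oncogenic HRAS fused to the oestrogen receptor and active only with ligand. The growing cells carried the same construct and received no 4-hydroxytamoxifen, and the RIS cells received 100 nM for 6 days. There were 2 cHi-C libraries per state, and 3 growing and 2 RIS Hi-C libraries. Growing Hi-C replicate 3 carried an MSCV vector besides. The labels do not say whether the replicates were separate infections, and a culture induced by one oncogene stands for one way of reaching senescence. A contact map carries no transcript levels, so neither the cell type nor the senescent state could be checked here. Whole contacts recovered from the balanced values numbered 171660281 and 149304835 for growing and 99775066 and 68887121 for RIS, so depth and state cannot be told apart in cHi-C.

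A focal peak of this kind is what a chromatin loop leaves in a contact map. Cohesin extrudes chromatin until it meets CTCF, a zinc finger protein, and stops best where the CTCF sites of both anchors point into the loop, while other peaks join promoters to enhancers. In senescent fibroblasts such contacts are of interest because inflammatory cytokine and chemokine genes are switched on and cell cycle genes are silenced.

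The bases at the anchors are shown first, for the 6 peaks whose anchors held a core of the CTCF motif facing each other (CCA, any 2 bases, AG, any 2 bases and GGCA, searched on both strands), and for 4 peaks described below. The sequences are from GRCh37, the build of the files (24 of 24 chromosome lengths were equal), each written 5′ to 3′ on the strand of the match, with the match in capitals and 8 flanking bases on each side.
CKAP2L peak, upstream anchor, intron of CKAP2L, chr2:113507410-113507438, plus strand: cagctctgCCAGCAGGGGGCAcgagaggg
CKAP2L peak, downstream anchor, between genes, chr2:113642662-113642690, minus strand: gtatgcagCCACTAGGTGGCAggagagag
TOP2A peak, upstream anchor, intron of TOP2A, chr17:38555552-38555580, plus strand: gtaaattaCCACAAGGGGGCAgtcaaatc
TOP2A peak, downstream anchor, between genes, chr17:38689730-38689758, minus strand: ccagctgtCCACAAGGGGGCAttcaagga
MMP20 peaks, shared upstream anchor, between genes, chr11:102366511-102366539, plus strand: agaagatgCCATGAGCAGGCAgtatggtt
MMP20 peak of 120 kb, downstream anchor, intron of MMP20, chr11:102485384-102485412, minus strand: caataaatCCATAAGGTGGCAggctgaac
MMP20 peak of 170 kb, downstream anchor, between genes, chr11:102537257-102537285, minus strand: tctccttgCCACTAGATGGCAattgcctc
SLC17A1 peak, upstream anchor, intron of SLC17A1, chr6:25788949-25788977, plus strand: gagagcatCCACAAGGGGGCAtcagagtg
SLC17A1 peak, downstream anchor, between genes, chr6:25942954-25942982, minus strand: caggtttaCCAAGAGATGGCActcttgta
THSD4 peak, upstream anchor, intron of LRRC49, chr15:71265772-71265800, plus strand: gtatctccCCATCAGAAGGCAggggggtc
THSD4 peak, downstream anchor, intron of THSD4, chr15:71391497-71391525, minus strand: tccccagaCCACCAGGAGGCAaggtctgt
IL1B peak, upstream anchor, exon of IL1B, chr2:113590922-113590950, minus strand: gtagttagCCAAGAGCAGGCAgtagatct
IL1B peak, downstream anchor, between genes, chr2:113699634-113699662, plus strand: agcaggacCCAGGAGAAGGCAggggctga
CCL13 peak of 160 kb, upstream anchor, between genes, chr17:32527097-32527125, plus strand: ctctttcaCCATAAGGTGGCAgcagagag
ZBTB7C peaks, shared downstream anchor, between genes, chr18:45973147-45973175, minus strand: ccgacaggCCACCAGAGGGCAcccacaga
ZBTB7C peaks, the same anchor, other match, between genes, chr18:45979749-45979777, minus strand: tatttgtcCCAGAAGAAGGCActgaggcc

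The letters stood in the facing orientation more often at peaks than over all pairs. A plus-strand match in the upstream anchor with a minus-strand match in the downstream anchor occurred in 6 peaks, 1.59% of them, against 0.313% of the 54548 pairs tested, and the opposite orientation in 2 peaks, 0.531% against 0.334%. Counted singly, the upstream anchor held a plus-strand match in 11.1% of peaks against 5.56% of all pairs, and a minus-strand match in 5.04% against 5.57%. The downstream anchor held a minus-strand match in 9.02% against 5.67% and a plus-strand match in 3.71% against 5.6%. Most peaks, 74.5%, had the letters in neither anchor, as did 79.3% of all pairs. The IL1B peak was one of the 2 with the outward orientation of the letters, which its printed bases show. A match of the letters does not show that CTCF binds there, and binding was not measured in these libraries. Mean GC content was 41% at the peaks and 40.6% over all pairs.

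The peaks lay on 20 chromosomes in 76 captured stretches and used 492 different bins, of which 146 took part in more than 1 peak and one in 10. Their median separation was 240 kb, from 60 to 800 kb. At the median a peak stood 1.801 times over its ring, 129 peaks reached 2 times and 23 reached 3 times. In 141 peaks neither anchor touched a protein-coding gene, and the nearest start site of an anchor was 53.5 kb away at the median. A start site lay in an anchor of 69 peaks, 18.3% against 13.6% of all pairs, but in both anchors of only 2, 0.531% against 1.2%. The smallest ratio inside the rule was 1.501 and the largest outside it 1.499. The smallest value allowed was 20, the lowest peak had 22.7, and no other candidate lay below, so this limit removed nothing.

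Contact depth set how well a single peak was known. The median peak had 111 and 97 contacts in growing cells, against 62 and 39 in RIS. In 60 peaks the mean over the 4 libraries was under 10 contacts, and in 11 peaks at least 1 library had none. A mean of 100 contacts or more was found at 175 peaks.

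Taken over all 377 peaks, local enrichment differed little between the states. The median log2 ratio of peak to ring was 0.83 and 0.87 in growing cells, compared with 0.85 and 0.94 in RIS, against medians from -0.34 to -0.30 over all pairs. The RIS and growing values overlapped. The ratio reached 1.5 in both states at 253 peaks, in growing cells alone at 56 and in RIS alone at 68. These 124 peaks of a single state differ through the rule, so counts over all 377 are a description. Counts by captured stretch or by gene list below include such peaks and are a description too. The median difference, RIS minus growing, was -0.01 on the log2 scale at the peaks and -0.02 over all pairs. Its sign is not settled, since it was 0.01 without growing replicate 2, 0.06 without RIS replicate 1 and 0.0069 with distance correction.

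Peaks were also chosen in one replicate of both states and measured in the other, which had no part in the choice. Of 425 peaks chosen in replicate 1, 60.5% reached 1.5 in growing replicate 2 and 59.5% in RIS replicate 2, with median log2 ratios of 0.70 and 0.69. Of 457 chosen in replicate 2, 56.2% reached it in growing replicate 1 and 51.9% in RIS replicate 1, with medians of 0.67 and 0.60. Both choices shared 190 peaks. Around positions so chosen, the mean value of the central bin was 1.66 and 1.71 times the ring for growing cells and 1.63 and 1.73 times for RIS, and the 8 bins around it averaged 1.14 to 1.17 times. The central bin was thus well above its neighbours in every library.

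**Figure D1:**
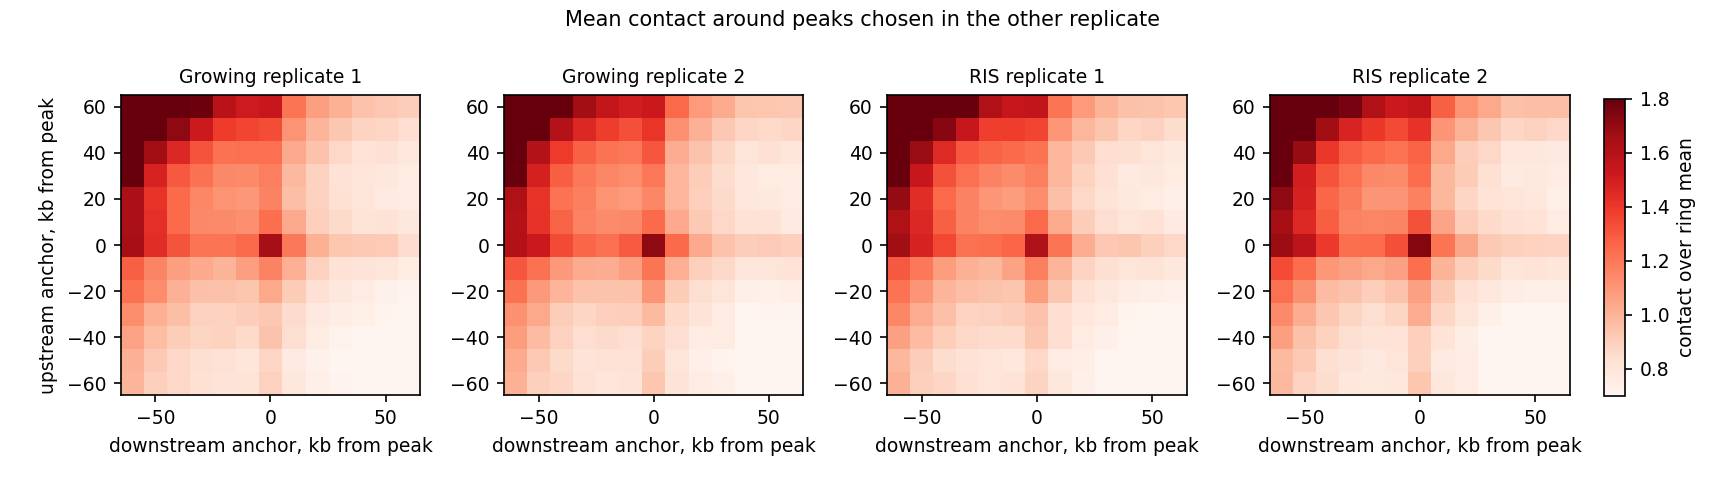
Mean contact value over the ring mean (colour) against the distance in kb of the upstream and the downstream bin from the peak, in each cHi-C library, for peaks chosen in the other replicate (457 for both replicate 1 libraries, 425 for both replicate 2 libraries). All 4 maps have a central bin, from 1.63 to 1.73, darker than its neighbours, a faint row and column through it, and the highest values at the upper left, where the bins lie closest together on the chromosome.

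Applied to single libraries, the rule found 478 and 544 peaks for growing cells and 547 and 592 for RIS. After all were thinned to the 50622524 contacts between different bins of the shallowest library, the counts were 637 and 643 in growing and 591 and 592 in RIS. The order of the states was the reverse of that before thinning.

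Peak by peak, the RIS libraries were both higher than the growing libraries at 93 peaks, 24.7%, against 19.2% of all pairs tested. They were both lower at 76 peaks, 20.2%, against 25.7% of all pairs. Among the 253 peaks at 1.5 in both states, 51 were higher, 20.2%, and 41 lower, 16.2%. Of the 68 at 1.5 in RIS alone 42 were higher and 0 lower, and of the 56 in growing alone 0 and 35. No peak passed limma with Benjamini-Hochberg adjustment over all pairs, where 0% were called in either direction, although 57 peaks had an unadjusted p under 0.05, 15.1% against 11.1% of all pairs. With 2 libraries per state, an exact permutation test could not go below 0.333. A second fit, limma with precision weights from the recovered contacts (voom), called 9 peaks higher in RIS, 2.39% against 1.04% of all pairs, and 14 lower, 3.71% against 1.52%. Of the 253 peaks at 1.5 in both states it called 7 higher and 10 lower, and the other 6 calls were at peaks of a single state. Of these 23 peaks, 21 had a mean of 100 contacts or more, and between 14 and 17 were called when 1 library was left out, 9 to 16 of them among the 23. With a library left out, one state has a single library, which is assumed to vary like those of the other state. Of the peaks at 1.5 in both states, DCBLD2 and both ZBTB7C peaks described below were called in each of these fits, with the outer border as ring and after correction for separation.

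**Figure D2:**
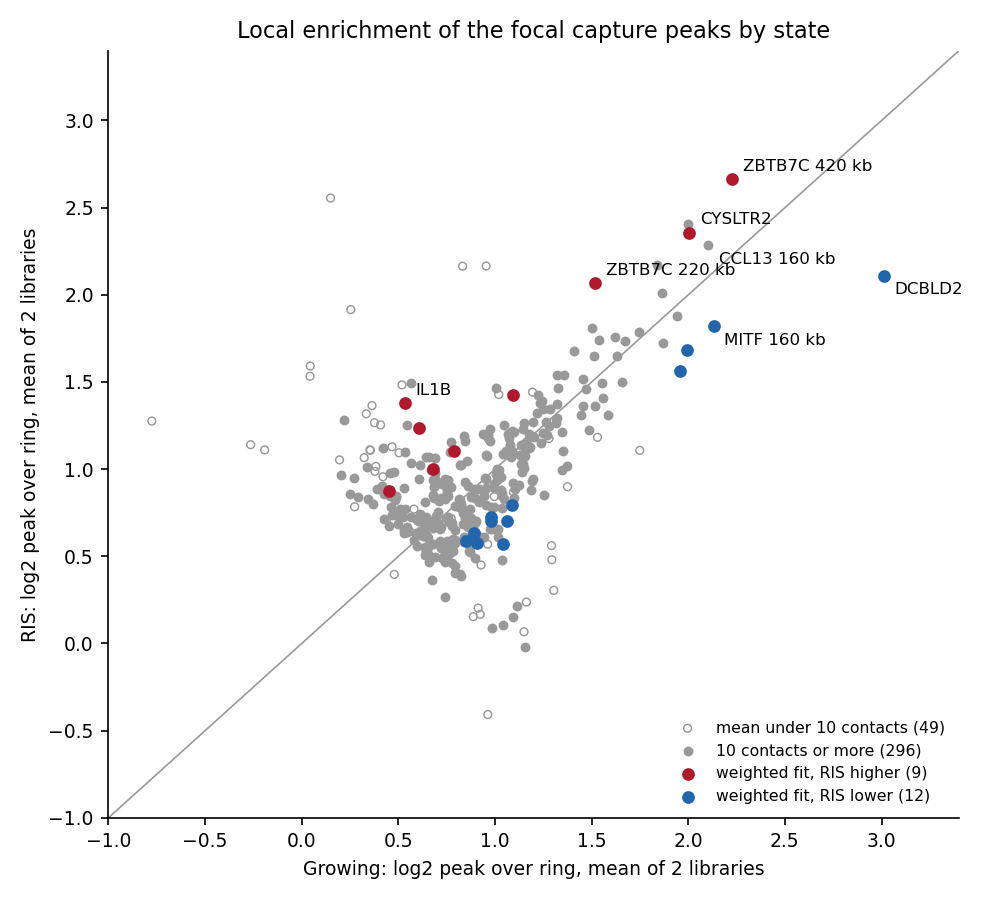
Log2 peak over ring in growing cells (horizontal) and RIS (vertical), each the mean of 2 cHi-C libraries, for the 366 peaks above -1 on both axes; open circles had a mean under 10 contacts, and coloured points were called by the weighted fit. Most peaks follow the diagonal of equal values, with IL1B and both ZBTB7C peaks above it and DCBLD2 furthest below it among the coloured points.

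**Figure D3:**
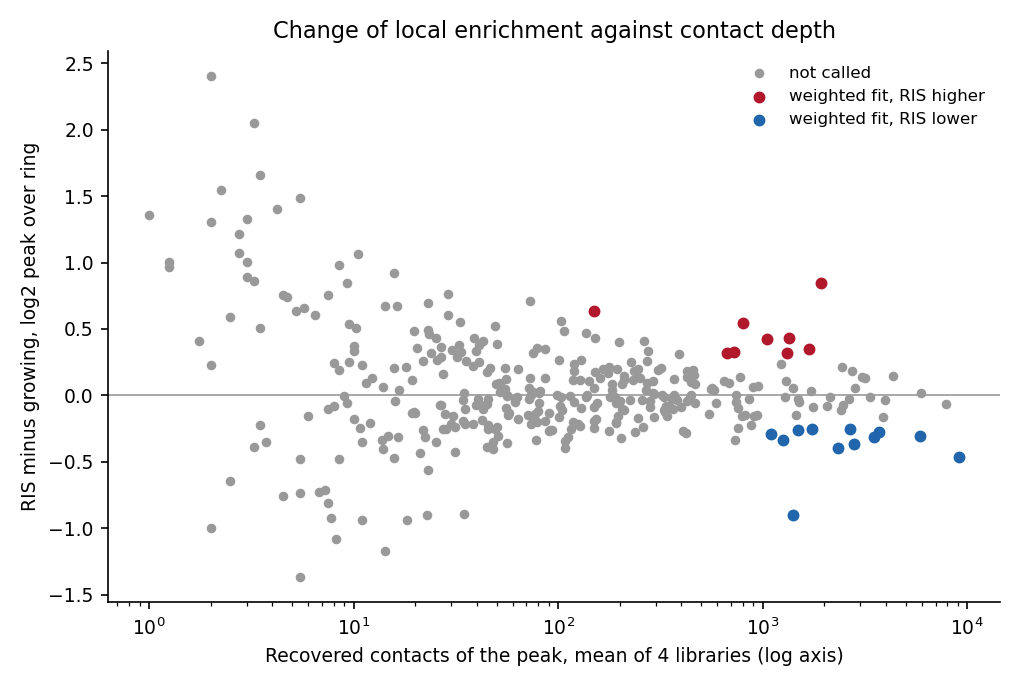
Difference between RIS and growing in log2 peak over ring (vertical) against the mean recovered contacts of the peak (horizontal, log axis) for 369 peaks, with 8 beyond 2.6 left out. The spread narrows with depth, and the 21 coloured peaks called by the weighted fit have 100 contacts or more, while both peaks called under 10 contacts are among those left out.

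The share called by the weighted fit was highest among the deepest peaks. Of 96 peaks with a mean of 300 contacts or more it called 20, 20.8%, against 5.36% of all pairs of that depth, and of the 82 at 1.5 in both states it called 16, 19.5%. Of 79 peaks between 100 and 300 contacts it called 1, 1.27% against 1.33%. None was called between 10 and 100 contacts. Below 10 contacts it called 2 peaks, 3.33% against 3.36%, whose contacts in the growing and RIS libraries were 17, 11, 0 and 1 at one and 2, 6, 0 and 0 at the other.

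Among the peaks called higher in RIS, the one at IL1B had the largest difference. IL1B encodes interleukin 1 beta, a secreted cytokine that drives the inflammatory output of senescent cells. Its anchors were chr2:113590001-113600000, which holds the IL1B start site, and chr2:113690001-113700000, 21.3 kb from the start of IL37. The peak stood 1.24 and 1.69 times over its ring in growing cells, and 2.63 and 2.58 times in RIS. Both RIS values were above both growing values, which themselves differed. The difference was 0.84 ± 0.18 (SE, n = 2 libraries per state) on the log2 scale, with an adjusted p of 0.405 in limma. Here and below the SE is the moderated one of limma, which draws on the variance of all pairs tested besides these libraries. With a ratio of 1.46 in the growing mean and 2.61 in the RIS mean the peak entered through RIS, so its call by the weighted fit is no support for the difference. The recovered contacts were 1895 and 2111 in growing and 2338 and 1361 in RIS, although the RIS libraries were shallower.

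The CKAP2L peak of the same region, from a bin with part of the mitotic spindle gene CKAP2L to one 18.7 kb from the start of IL37, showed no such difference in local enrichment. It stood 2.20 and 2.26 times over its ring in growing and 2.04 and 2.33 times in RIS, so the libraries overlapped. In Hi-C, however, its log2 contact over expected was 2.06, 2.01 and 1.86 for growing cells and 1.41 and 1.58 for RIS, lower in both RIS libraries. It shares no anchor with the IL1B peak.

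Near ZBTB7C, a zinc finger transcription regulator beside SMAD2, 2 peaks shared the downstream anchor chr18:45970001-45980000, which held 2 minus-strand matches. The longer, from chr18:45550001-45560000 and 420 kb in length, stood 4.73 and 4.67 times over its ring in growing and 6.19 and 6.52 times in RIS. The shorter, from chr18:45750001-45760000 and 220 kb in length, stood 2.90 and 2.84 times over it in growing and 4.21 and 4.19 times in RIS. In both, the states were apart by more than the replicates. Their differences were 0.44 ± 0.18 and 0.55 ± 0.12 (SE, n = 2 libraries per state) on the log2 scale in limma, which called neither. In the weighted fit the differences were 0.43 and 0.55, with adjusted p of 0.00108 and 0.000414. The 2 peaks are not independent, since they share an anchor. The third peak described here, from the same upstream bin to CTIF 620 kb away, had 29 and 41 contacts in growing and 51 and 38 in RIS, and its libraries overlapped. Of the 24 peaks of this stretch, 6 had both RIS libraries higher and 3 both lower, while 17.8% and 24.2% of all its pairs did. In Hi-C 8 of the 24 had both RIS libraries above all growing libraries and 1 below, against 14.7% and 17.8% of all pairs. Peaks of a single state were not left out of these counts.

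The CCL13 anchor on chromosome 17, chr17:32680001-32690000, holds the start of CCL13 and part of CCL1, both secreted chemokines. It was joined to chr17:32520001-32530000, 160 kb away, and to chr17:32400001-32410000, 280 kb away inside ASIC2, an ion channel gene. The longer peak stood 1.38 and 1.35 times over its ring in growing and 1.85 and 1.81 times in RIS, a difference of 0.42 ± 0.08 (SE, n = 2 libraries per state) on the log2 scale. Like the IL1B peak, it passed the limit of 1.5 only through RIS, and its call by the weighted fit is no support. The shorter peak was high in all libraries, 4.18 and 4.43 times in growing and 4.604 and 5.16 times in RIS, and was not called, with a weighted adjusted p of 0.164. The third peak of this stretch also had both RIS libraries above both growing libraries, while 24.1% of all pairs of the stretch did.

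The remaining peaks called higher lay at 5 loci. Around CYSLTR2, a cysteinyl leukotriene receptor gene that lies between the anchors, the peak from chr13:49170001-49180000 to chr13:49330001-49340000 stood 3.84 and 4.20 times over its ring in growing and 5.12 and 5.13 times in RIS. At a peak on chromosome 9 that spans LHX3 and QSOX2, the values were 1.70 and 1.36 in growing and 2.32 and 2.40 in RIS, on 99 to 204 contacts, the fewest of the 9. At PDHX, a subunit of the pyruvate dehydrogenase complex, a peak of 150 kb had 1.71 and 1.75 in growing and 2.06 and 2.25 in RIS. The last 2, at GSK3A and at a gene-free pair on chromosome 6 near TMEM63B, differed by 0.32 and 0.33 on the log2 scale. In all of these both RIS libraries were above both growing libraries. A gene-free pair, chr11:37530001-37540000 with chr11:37800001-37810000, was among the 6 of highest ratio and stood 4.16 and 3.86 times over its ring in growing and 5.79 and 4.86 times in RIS, but was not called, with a weighted adjusted p of 0.089.

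Among peaks of 100 contacts or more, the largest fall called by the weighted fit was at DCBLD2, which encodes a membrane receptor of the neuropilin type. This peak, between chr3:98530001-98540000, which holds parts of ST3GAL6 and DCBLD2, and chr3:98710001-98720000 between genes, had the highest ratio of all 377 peaks. It stood 7.82 and 8.32 times over its ring in growing and 4.09 and 4.57 times in RIS, so that it lost height but remained far above the limit of 1.5. The difference was -0.90 ± 0.20 (SE, n = 2 libraries per state) on the log2 scale, with an adjusted p of 0.406 in limma and 1.9e-05 in the weighted fit. Contacts were 2545 and 2237 in growing and 519 and 317 in RIS. Of the 10 peaks in this captured stretch, 4 had both RIS libraries higher and 2 had both lower, while 18.4% and 30.9% of all its pairs did.

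At MITF, a transcription factor best known as the master regulator of melanocytes, 4 peaks were called lower. The anchors chr3:69740001-69750000, chr3:69840001-69850000 and chr3:69900001-69910000 each served 2 of them, and the peaks are therefore not independent. The peak of 160 kb stood 4.37 and 4.41 times over its ring in growing and 3.36 and 3.72 times in RIS. The peak of 150 kb had 3.79 and 3.98 in growing and 2.80 and 3.12 in RIS. The 4 differences lay between -0.39 and -0.26 on the log2 scale. Of the 9 peaks of the stretch, 7 had both RIS libraries lower and 0 had both higher in cHi-C, while 29.7% and 25.5% of all its pairs did. Peaks of a single state were not left out of this count. In Hi-C 1 of the 9 had both RIS libraries below all growing libraries and 2 above them, against 17.8% and 14.7% of all pairs.

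A like cHi-C count was seen at chr11:5240001-5690000, a stretch that holds olfactory receptor genes and genes of the beta-globin cluster. There 7 of 10 peaks had both RIS libraries lower and 1 had both higher, against 25.96% and 30.1% of all pairs of the stretch. Peaks of a single state were not left out of this count either. In Hi-C 2 of the 10 had both RIS libraries below all growing libraries and 0 above them, against 17.8% and 14.7% of all pairs. The one called lower, between chr11:5300001-5310000 and chr11:5380001-5390000 in the annotated OR51B5 gene, had the most contacts of the peaks called, 15793 and 12784 in growing and 4854 and 3099 in RIS. It stood 2.12 and 2.00 times over its ring in growing and 1.48 and 1.49 times in RIS, a difference of -0.47 ± 0.08 (SE, n = 2 libraries per state) on the log2 scale. It passed the limit of 1.5 only through growing cells, so its call by the weighted fit is no support either.

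Other peaks called lower lay at CABCOCO1 near ARID5B, at MLPH, TRIO and DYM, and between PDHX and the start of CD44. Their differences ran from -0.36 at CABCOCO1 to -0.25 at CD44 on the log2 scale, all with both RIS libraries below both growing libraries. The MLPH peak passed 1.5 only through growing cells. CD44, the receptor of hyaluronan, was joined by its start site to 3 upstream bins inside or beside PDHX. The peak of 150 kb was the one called lower, that of 220 kb overlapped between the states with a difference of -0.03, and that of 110 kb had both RIS libraries higher by 0.13 on the log2 scale without being called.

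**Figure D4:**
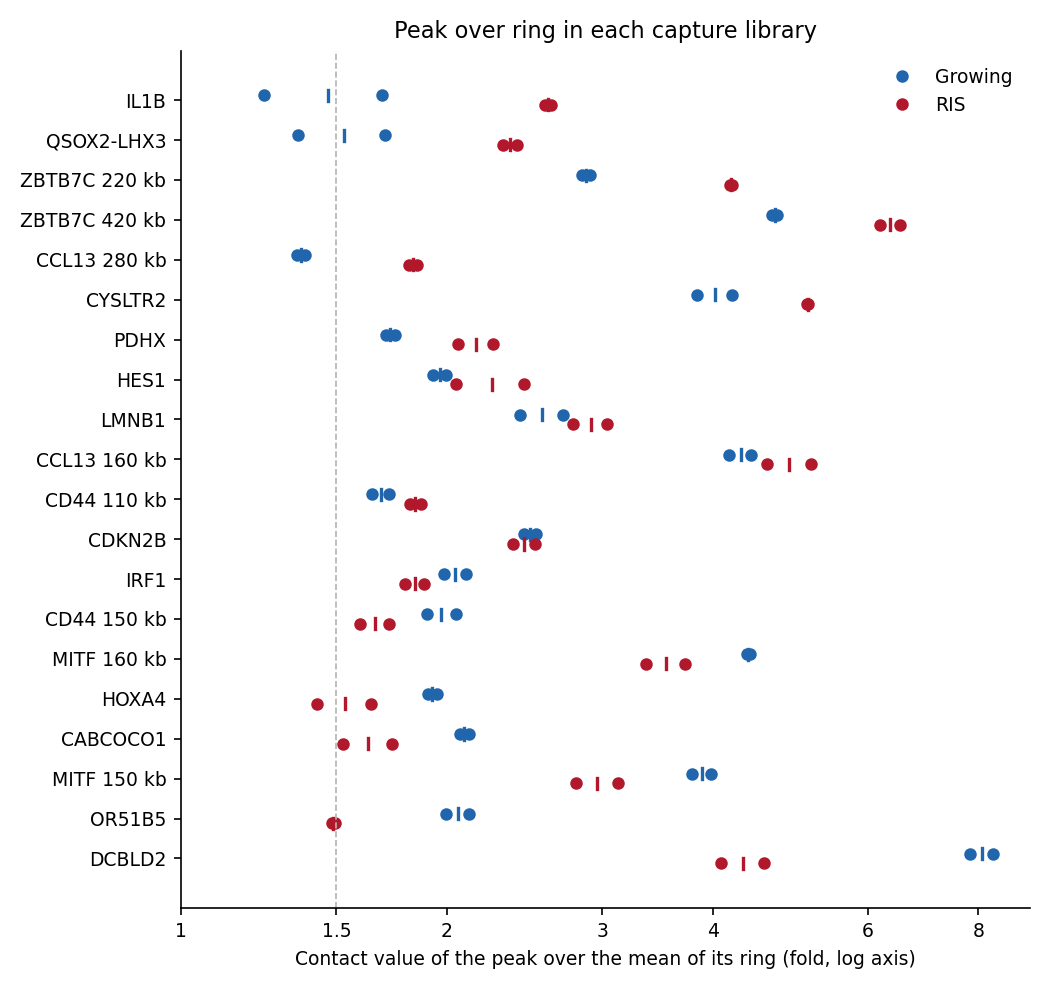
Contact value of the peak over the mean of its ring (horizontal, fold on a log axis) in each cHi-C library for 20 named peaks, ordered by the difference between RIS and growing; points are libraries, short bars their means, and the dashed line the limit of 1.5. The 2 RIS points lie right of both growing points from IL1B down to the CD44 peak of 110 kb, overlap with them at CDKN2B, and lie left of them from IRF1 down to DCBLD2.

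Of 95 genes in 5 lists of secreted factors, matrix genes and proteases, cell cycle and arrest genes, SMAD, NOTCH and RAS pathway genes and transcription regulators, start sites lay in the anchors of 16 peaks. In 7 of these both RIS libraries were higher, in 6 both were lower and in 3 they overlapped. All pairs had 19.2% higher and 25.7% lower. The median difference was -0.03 on the log2 scale against -0.02 over all pairs. Peaks of a single state were not left out, among them IL1B, the longer CCL13 peak, COL6A3, MMP12 and MMP13. These counts are therefore a description. The weighted fit, which called 1.04% of all pairs higher and 1.52% lower, called 3 of the 16, IL1B and the longer CCL13 peak, both at 1.5 in RIS alone, higher and the CD44 peak of 150 kb lower.

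By group, all 3 peaks of the secreted factors had both RIS libraries higher, against 19.2% of all pairs. They were the IL1B peak and the CCL13 peaks, which share an anchor, and only the shorter CCL13 peak reached 1.5 in both states. Of 6 peaks of the matrix genes and proteases, at CD44, COL6A3, MMP12 and MMP13, 1 had both higher and 3 both lower, and those at COL6A3, MMP12 and MMP13 reached 1.5 in growing cells alone. The MMP12 peak, at a secreted elastase, had the largest difference of this group, -1.18 on the log2 scale, but on 27 and 19 contacts in growing and 4 and 7 in RIS, and it was not called. Of the 2 peaks of cell cycle and arrest genes, that at LMNB1, the lamin B1 gene, stood 2.42 and 2.71 times over its ring in growing and 2.78 and 3.04 times in RIS. That at CDKN2B, the gene of the cell cycle inhibitor p15, had 2.45 and 2.53 in growing and 2.38 and 2.52 in RIS and overlapped.

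The peak at HES1, a repressor induced by NOTCH, stood 2.00 and 1.93 times over its ring in growing and 2.05 and 2.45 times in RIS, and that at SMAD4, the common partner of receptor-activated SMADs, differed by -0.15 on the log2 scale. Neither was called. Of the 3 peaks at transcription regulators, IRF1, an interferon regulatory factor, had 2.10 and 1.99 in growing and 1.79 and 1.88 in RIS. HOXA4 had 1.91 and 1.95 in growing and 1.64 and 1.42 in RIS, with a weighted adjusted p of 0.0538, while HOXA5 had both RIS libraries higher by 0.13 on the log2 scale. Both HOXA genes belong to the cluster that sets positional identity, and neither peak was called.

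Ranked by difference alone among peaks whose libraries did not overlap, the extremes were peaks of few contacts. The 6 largest positive differences had at most 10 contacts in any library, with 1, 1, 4 and 2 contacts in growing and RIS at a gene-free pair on chromosome 11 and 4, 3, 10 and 5 at MYO5B as examples. Of the 6 largest negative differences, 4 had a RIS library without contacts, and the MMP12 peak was the deepest. No fold is given for those with a mean under 10 contacts. Several lay in the stretch chr11:37490001-38410000, a gene desert with 35 peaks, 16 of them under 10 contacts. In cHi-C 14 of the 35 had both RIS libraries higher and 3 both lower, against 16.4% and 19.1% of all its pairs. Peaks of a single state were not left out of these counts. Hi-C had both RIS libraries above all growing libraries at 1 of the 35 and below them at 7. All Hi-C pairs had 14.7% and 17.8%.

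Restricted to the 175 peaks with a mean of 100 contacts or more, a limit set after the values were seen, 48 had both RIS libraries higher, 27.4% against 20.4% of all pairs of that depth, and 47 both lower, 26.9% against 28.5%. The weighted fit called 9 of them higher, 5.14% against 1.43%, and 12 lower, 6.86% against 2.08%. Of the 143 such peaks at 1.5 in both states, 39 had both RIS libraries higher and 33 both lower, and 7 and 10 were called. By separation, of 70 such peaks up to 150 kb apart, 19 had both RIS libraries higher and 17 both lower, against 19.7% and 28.7% of all pairs of that separation at any depth. Of 81 from 160 to 300 kb apart, 22 and 21 did, against 19.0% and 23.7%. Of 20 from 310 to 450 kb apart, 6 and 7 did, against 18.5% and 20.6%, and of 4 from 460 to 800 kb apart, 1 and 2 did, against 17.4% and 18.3%. With shallower peaks included, the counts were 19 and 17 of 85 and 14 and 5 of 45 in these classes, and 7 and 6 of 49 and 6 and 2 of 25 among peaks at 1.5 in both states.

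The contact value itself, without division by the ring, was called at no peak by limma after loess normalisation, and at 116 peaks the unadjusted p was under 0.05, 30.8% against 21.1% of all pairs. Both RIS libraries were higher at 102 peaks, 27.1% against 28.3% of all pairs, and lower at 100, 26.5% against 27.1%. With voom on the recovered contacts, 51 peaks were called higher, 13.5% against 10.7%, and 39 lower, 10.3% against 9.32%. Of the 253 peaks at 1.5 in both states, 61 had both RIS libraries higher and 66 both lower in contact value, and voom called 39 and 28. DCBLD2 fell by 1.55 and OR51B5 by 0.83 on the log2 scale in that fit, and IL1B rose by 0.86. DYM had -0.05, so its lower ratio came with a contact value that was not called.

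Whether the differences appeared in libraries that had no part in choosing the peaks was read from the Hi-C data, 40 kb bins and no capture. The study calls the cHi-C libraries matching, and the labels do not say whether both kinds came from the same cultures, so the Hi-C values may not be independent of them. Each peak was placed in the 40 kb pair that held it, and the value was divided by the mean of its separation. The 377 peaks fell in 369 pairs, of which 361 had enough signal. Hi-C measures the 40 kb pair against its separation and not against a ring, so the scales differ. Here too no peak passed limma, 50 pairs had an unadjusted p under 0.05, 13.9% against 12.3% of all 1217104 pairs, and the smallest adjusted p was 0.315. The 2 RIS libraries were above the 3 growing libraries at 79 pairs, 21.9% against 14.7%, and below them at 52, 14.4% against 17.8%. All pairs here are those of the whole genome at every separation fitted, and not only those in captured regions. Whether these shares differ through the captured regions or the separation was not tested. For peaks at 1.5 in both states the counts were 57 and 34 of 243 pairs. The median difference was 0.04 on the log2 scale at the peaks and -0.03 over all pairs.

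Of the 7 peaks called higher in cHi-C that reached 1.5 in both states, all had positive Hi-C differences, and at 5 both RIS libraries were above all growing libraries. Of the 10 called lower, 5 had both RIS libraries below all growing libraries and 1 above, and 5 had positive differences. Among the 172 Hi-C pairs of peaks with a mean of 100 contacts or more, 106 had positive differences. At 29.1% of these pairs both RIS libraries were above all growing libraries, and at 15.1% below. The 7 include both ZBTB7C peaks, which share an anchor. At DCBLD2 the log2 contact over expected in growing cells was 2.01, 1.99 and 2.07, and RIS had 1.55 and 1.45. The longer ZBTB7C peak had 1.53, 1.81 and 1.73 in growing and 2.44 and 2.24 in RIS, and the peak around CYSLTR2 had 1.47, 1.45 and 1.297 in growing and 1.99 and 2.02 in RIS. None of these overlapped between the states, and the exact permutation test of 3 against 2 libraries could not go below 0.1. Among the 6 called peaks of a single state, chosen through the state where they were high, IL1B had 0.62, 0.90 and 0.76 in growing cells and 1.35 and 1.495 in RIS. OR51B5 had 1.44, 1.47 and 1.62 in growing cells, with 0.84 and 0.97 in RIS. These are values only.

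Of the 14 peaks called lower, those at MITF were less uniform in Hi-C. At the peak of 160 kb Hi-C had 1.68, 1.68 and 1.79 in growing and 1.92 and 1.75 in RIS, and at that of 150 kb 0.79, 0.82 and 1.01 in growing and 0.63 and 0.72 in RIS. The first overlapped, the second was lower in both RIS libraries, and the other 2 overlapped. TRIO, called lower in cHi-C, had both RIS libraries above all growing libraries in Hi-C, 1.20 and 1.25 against 1.04 to 1.15.

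Over the 172 Hi-C pairs that held peaks with a mean of 100 contacts or more, the cHi-C and Hi-C differences had a Pearson r of 0.48 and a Spearman rho of 0.46. Over all 361 pairs these were 0.14 and 0.22. The points share libraries and, in part, anchors and 40 kb bins, and the values describe these libraries only. Of the 48 deep peaks with both RIS libraries higher in cHi-C, 27 were also apart and higher in Hi-C and 1 was lower, and of the 47 with both lower, 14 were lower and 5 higher, while 29.1% and 15.1% of the 172 pairs were higher and lower. With peaks of a single state left out, 23 of 38 pairs were higher and 1 lower, and 10 of 33 were lower and 5 higher.

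**Figure D5:**
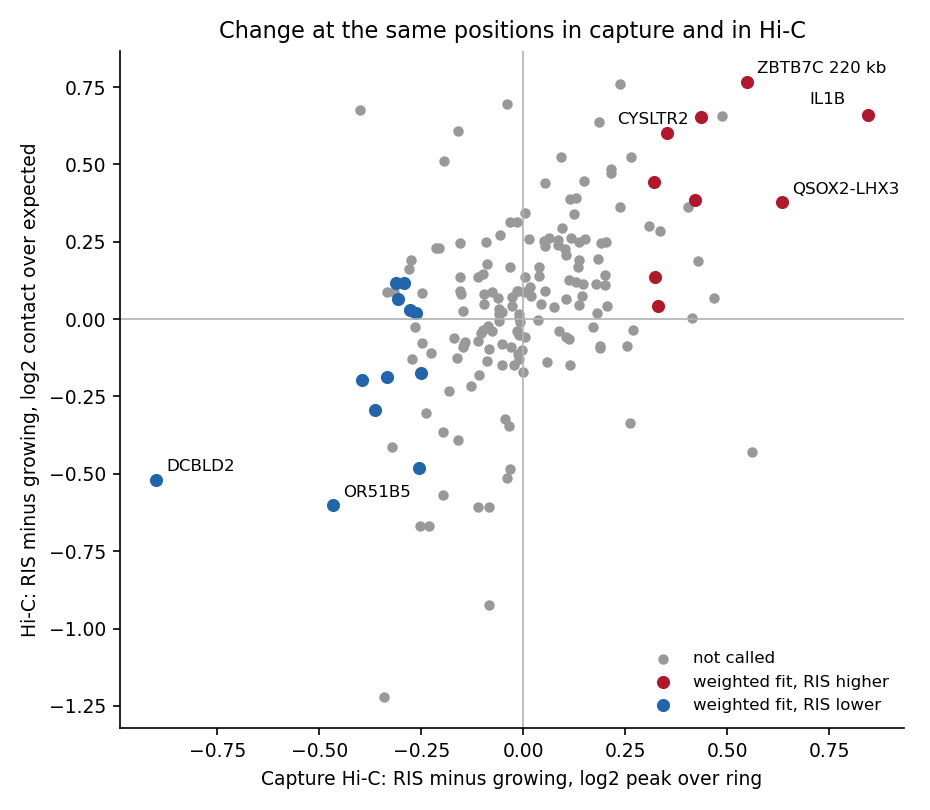
Difference between RIS and growing in log2 contact over expected in Hi-C at 40 kb (vertical) against that in log2 peak over ring in cHi-C at 10 kb (horizontal) for the 175 peaks with a mean of 100 contacts or more; coloured points were called by the weighted fit in cHi-C. The 9 peaks called higher, 7 of them at 1.5 in both states, lie above 0 in Hi-C, as do 106 of the 172 pairs that hold the 175 peaks. DCBLD2 lies well below it, as does OR51B5, a peak at 1.5 in growing cells alone, and 5 of the peaks called lower lie slightly above it.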

How the data were processed

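The authors checked the libraries with FastQC, aligned them to hg19 with HiC-Pro and deposited ICE-balanced contact signal, at 10 kb for cHi-C and 40 kb for Hi-C, one matrix per library. These signal values are not counts, so limma on the log2 scale took the place of the study's quasi-likelihood test. That test was not run on the recovered contacts either. Each cHi-C matrix was scaled to the mean of the 4 totals. Whole contacts were recovered from the steps of the balanced values, of which 99.977% or more came out whole within 0.05. Peak over ring was compared as log2((peak + 0.5) / (ring + 0.5)) with limma 3.58.1 (trend) over the 54548 pairs with a scaled value of 5 or more, and with voom weights as an alternative. Benjamini-Hochberg adjustment was at 5%. Hi-C was fitted likewise over 1217104 pairs of the whole genome, with value over the mean of its separation. Start sites came from GENCODE protein-coding genes lifted to GRCh37. Scripts were tested on simulated data.

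Members and gene lists were chosen with earlier results of these data known. Named peaks were the 6 of highest ratio, the 6 largest rises and falls among peaks whose libraries did not overlap, and up to 10 at listed genes. Those called by the weighted fit were named after their values were seen, and one of them is not reported here. The labels number the replicates, and p-values describe these libraries only. Each variance is moderated by limma towards those of all pairs fitted, so SEs and p-values do not rest on a pair's own spread alone. Balancing forces equal row sums, so values are relative within a library.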

Additional observations from a re-analysis of the deposited data

How the results depend on the processing

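The number of peaks followed the limits of the rule. It was 634 at 1.3 times the ring, 129 at 2 times, 790 with values divided by the mean of their separation (337 shared with the 377) and 351 to 377 under another ring, scaling or smallest value. Leaving out 1 library gave 407 to 435. Captured stretches were joined over gaps of up to 5 bins as an alternative chosen after seeing the data, which gave 3670 peaks (347 shared), with both RIS libraries higher at 895 and lower at 603 and a median difference of 0.0427.

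For local enrichment, peaks at 2 times the ring gave 34 higher and 17 lower. The voom weights gave 9 called higher and 14 lower where the unweighted fit gave 0. The weighted fit called 17 higher with distance correction, 5 to 8 higher without 1 library (5 without growing replicate 2) and 6 to 11 lower (6 without RIS replicate 1, 9 without growing replicate 1). Leaving out 1 library moved the unweighted median between -0.0242 and 0.0587, the count of peaks higher between 126 and 180 and the count lower between 103 and 162. Without RIS replicate 1 the median was 0.0587 and 180 peaks were higher, without RIS replicate 2 162 were lower, and without growing replicate 1 126 were lower. Peaks at 1.5 in both states, an alternative chosen after seeing the data, gave 51 higher and 41 lower.

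For the contact value, voom called 51 higher and 39 lower, a pseudocount of 2 called 1 lower, and leaving out 1 library called 0 to 1 lower and 0 to 0 higher, with 131 to 166 higher, 129 to 166 lower and medians from -0.0416 to 0.0325. In Hi-C, leaving out 1 library gave 97 to 133 higher, 63 to 106 lower and medians from 0.0188 to 0.0462. Peaks chosen in replicate 1 had a median difference of 0.0129 in replicate 2, and those chosen in replicate 2 one of -0.0635 in replicate 1. With the neighbours of each anchor bin included, 4.51% of peaks had facing motifs and 32.6% a start site, against 2.37% and 31.5% of all pairs, a smaller ratio of peaks to all pairs in both. Why these values moved was not tested.

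Replicate numbers were not used to pair the samples in the main fits, and the labels do not say whether they pair them. Deviations of same-numbered libraries correlated at -0.033 in cHi-C and 0.018 and 0.015 in Hi-C. So few libraries cannot settle whether same-numbered libraries were handled together. With a replicate block no peak was called in cHi-C, for ratio or contact value, or in Hi-C, where the block gave a median of 0.0462 with 98 pairs higher and 72 lower. Of the named peaks, 3 that were not called changed sign: the CD44 peak of 220 kb with distance correction (0.0226), with the outer border as ring (0.0877) and without 1 library (-0.064 to 0.0094), CDKN2B without 1 library (-0.065 to 0.0175) and the ZBTB7C to CTIF peak without 1 library (-0.1311 without growing replicate 1, to 0.7977). Depth limits the 60 peaks under 10 contacts, whose differences had a median SE of 0.57 on the log2 scale.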
